A study of Saccharomyces cerevisiae with 18 samples.

Results

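The mitochondrial ribosomal protein genes of budding yeast (Saccharomyces cerevisiae) were taken by name: every gene whose symbol is MRP, MRPL, MRPS or RSM followed by a number. The rule found 66 of the 7124 genes in the count table, and all 66 passed the filter on low counts, as did 6139 genes in all. By their systematic names in RefSeq (assembly R64), 37 encode proteins of the large subunit and 27 proteins of the small subunit. Of these 64, 40 have a bacterial counterpart and 24 are found in mitochondria but not in bacteria. MRP8 and RSM22 fit the naming rule without having a systematic ribosomal name. MRP8 is not a subunit of the ribosome, and RSM22 encodes a methyltransferase-like protein that works with the small subunit.

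The mitochondrial ribosome translates the few proteins encoded by mitochondrial DNA, nearly all of them core subunits of the respiratory chain and of ATP synthase. Its RNAs come from mitochondrial DNA, but nearly all of its proteins are encoded in the nucleus, made in the cytosol and imported. In yeast these genes are usually expressed together, and they are known to respond to the carbon source.

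RNA and DNA binding were measured for 7 forms of Ste12, the transcription factor that drives the mating and filamentous growth programmes of yeast. The variants A160P, K146D, K150A, K150I, K152L and S158H, each with 1 amino acid changed in the DNA-binding domain, were set against wild-type Ste12 (WT). For RNA, all 7 forms were carried on a centromeric plasmid with the STE12 promoter in BY4705 MATα cells from which the chromosomal STE12 had been deleted, so that WT cells also carry the deletion and the plasmid, and cells were in exponential growth. For binding, each form was fused to the PiggyBac transposase, driven by GAL1, a promoter that galactose turns on, in BY4705 MATα cells that kept their own STE12.

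There were 35 RNA libraries, 5 for each form, with between 1039390 and 5481822 unique molecular identifiers (UMIs, tags that mark single cDNA molecules) per library. The labels place replicates 1 and 2 in one experiment and replicates 3, 4 and 5 in another. On the first principal component of all genes, which held 53.8% of the variance, all libraries of replicates 4 and 5 lay apart from all libraries of replicates 1, 2 and 3, so results are also given by these groups. The labels give the expression method as overexpression from a plasmid, whereas the methods describe STE12 under its own promoter. STE12 itself had 163 to 702 counts per 1000000 (CPM) in the variants, against 130 to 185 CPM in WT. Markers of α cells summed to between 542 and 4588 CPM in the 35 libraries and markers of a cells to between 21.0 and 144 CPM.

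Transcripts of the 66 genes were of moderate abundance and took up between 0.344% and 0.471% of the UMIs of a library. Levels are given as UMIs per 1000000 after TMM normalization. They are not divided by gene length, because cDNA was primed at the poly(A) tail and each molecule was counted once. The mean over 35 libraries had a median of 55.8 CPM over the 66 genes, close to the 57.3 CPM of all genes tested, and 62 of the 66 genes had a mean from 30 to 130 CPM. Genes of the small subunit (median 57.7 CPM) and of the large subunit (median 53.9 CPM) overlapped in level.

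**Figure D1:**
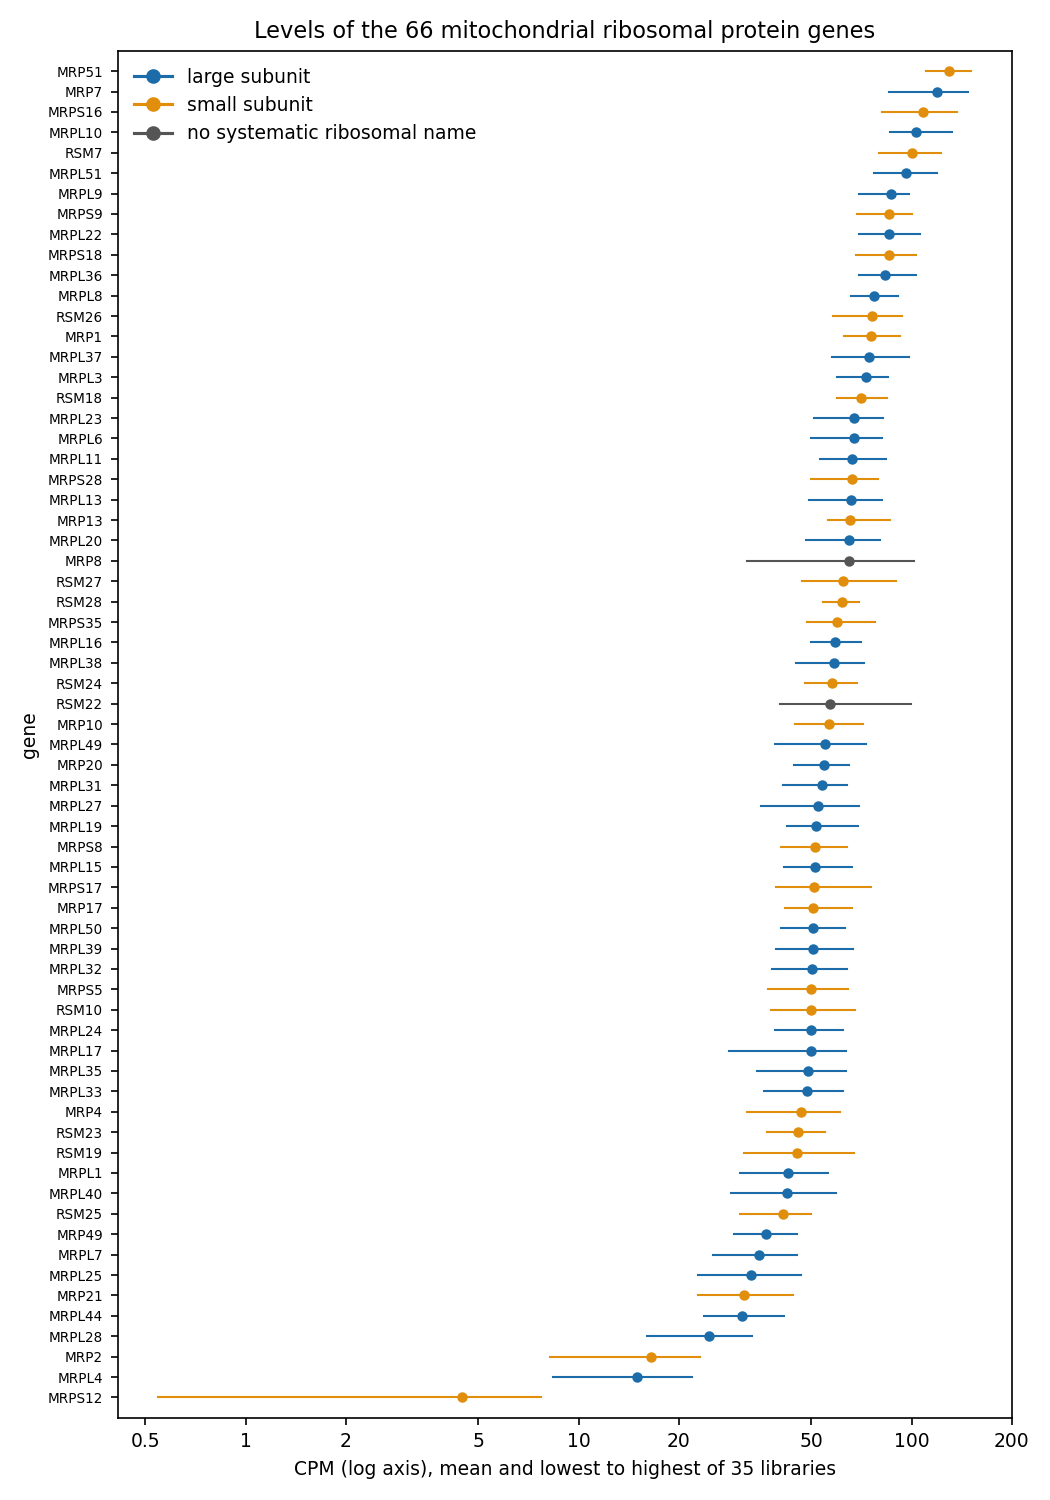
Mean level of each of the 66 genes in CPM on a log axis (point) with the lowest and highest of 35 libraries (line), ordered by mean and coloured by ribosomal subunit. Most genes lie between 30 and 130 CPM, and MRPS12, MRPL4, MRP2 and MRPL28 lie below.

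The most abundant transcript was that of MRP51, which encodes a protein of the small subunit (bS1m). It averaged 129.9 ± 9.70 CPM (SD over 35 libraries). Next came MRP7, the counterpart of bacterial bL27, at 119.7 ± 13.0 CPM, and MRPS16, the counterpart of bS16, at 108.0 ± 13.1 CPM. MRPL10 (uL15m) averaged 103.0 ± 11.6 CPM and RSM7 (uS7m) 100.01 ± 10.5 CPM. The SDs of neighbours in this order overlap.

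At the low end stood MRPS12, which encodes the counterpart of uS12, a protein of the decoding centre. It averaged 4.48 ± 2.17 CPM, from 1 to 32 UMIs in a library, so counting error alone is large for it. MRPL4 (uL29m) averaged 15.0 ± 3.93 CPM, MRP2 (uS14m) 16.5 ± 4.56 CPM, MRPL28 (mL40) 24.7 ± 4.05 CPM and MRPL44 (mL53) 31.0 ± 4.84 CPM. From MRPS12 to MRP51 the mean differed 29.0-fold, although their products are subunits of one particle.

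Summed over the 66 genes, the level in the 35 libraries ran from 3709 CPM (K150I replicate 3) to 4310 CPM (K146D replicate 2), a range of 1.16-fold with a coefficient of variation (CV) of 3.94%. The sum averaged 3903 ± 83.3 CPM in A160P, 4040 ± 157 CPM in K146D and 3847 ± 142 CPM in K150A. It averaged 3878 ± 130 CPM in K150I, 3938 ± 179 CPM in K152L and 3938 ± 192 CPM in S158H, against 4045 ± 155 CPM in WT (SD, n = 5 each). Every variant mean was below the WT mean, with differences from −4.91% (K150A) to −0.139% (K146D, where the sign turned without MRP8 and RSM22), and the libraries of each variant overlapped those of WT. No test was run on the sum.

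**Figure D2:**
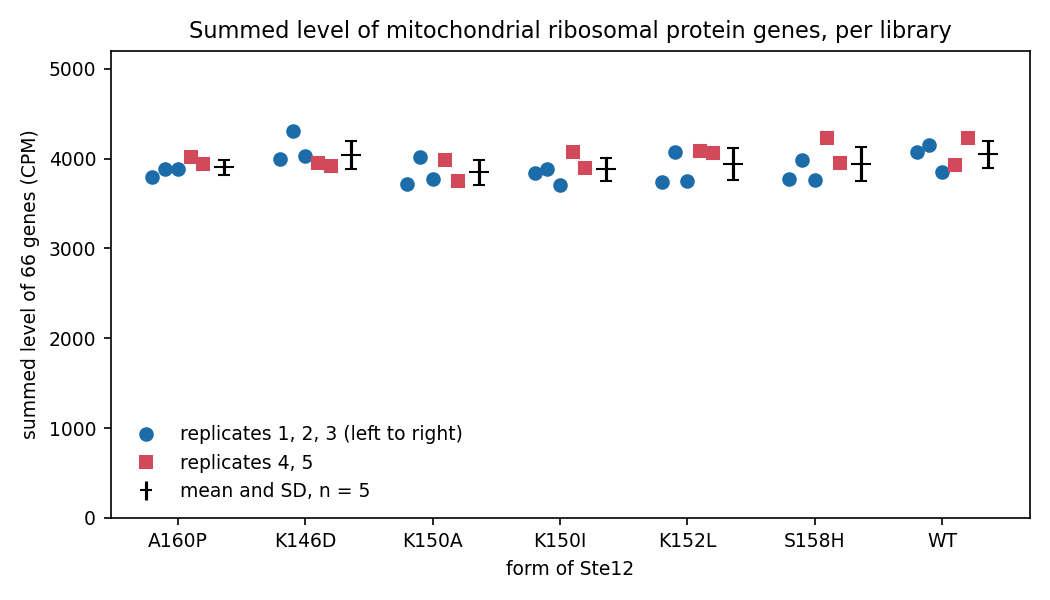
Summed level of the 66 genes in CPM in each of the 35 libraries, by form of Ste12, with replicates 1, 2 and 3 as circles, replicates 4 and 5 as squares, and the mean and SD (n = 5). All libraries lie between 3709 and 4310 CPM, with variants and WT overlapping.

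Each variant was compared with WT to ask whether changing the DNA-binding domain of Ste12 altered the RNA of these genes. None of the 66 genes passed an adjusted p of 0.05 in any of the 6 comparisons by edgeR's quasi-likelihood test with Benjamini-Hochberg adjustment over 6139 genes, nor by DESeq2. Over all genes tested, edgeR called 0.928% in A160P, 0.700% in K146D, 0.586% in K150A, 0.0652% in K150I, 0.896% in K152L and 0% in S158H. The lowest adjusted p of a mitochondrial ribosomal protein gene was 0.115, for MRP51 in K152L. In the F test of any difference among the 7 forms, 0 of 66 passed, against 1.22% of all genes, and the lowest adjusted p was 0.262, again for MRP51.

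At an unadjusted p below 0.05, 6 of 66 genes differed in A160P (4.79% of all genes), 4 in K146D (3.84%), 7 in K150A (7.74%), 0 in K150I (2.57%), 7 in K152L (5.64%) and 4 in S158H (2.92%). In the F test 5 of 66 did so, against 4.95% of all genes. Of the 28 such differences, 22 were lower in the variant and 6 higher. They are not separate observations, because some genes recur (MRPS9 in 5 variants, MRPL13 and MRPL38 in 4 each) against the same WT libraries. The split by direction over all genes is not given here.

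The sizes were small. Over the 396 combinations of gene and variant, log2 fold changes ran from −0.34 (MRP2 in S158H) to 0.31 (MRPL44 in A160P). The 95% confidence interval lay within ±1 on the log2 scale, a doubling or halving, for 390 of 396, and within ±0.5 for 351. The 6 exceptions to the wider limit were all MRPS12, the gene with the fewest UMIs, whose intervals ran from −1.17 at the lowest to 1.26 at the highest. The median log2 fold change of the 66 genes was −0.051 in A160P, 0.011 in K146D, −0.076 in K150A, −0.073 in K150I, −0.033 in K152L and −0.039 in S158H. Over all genes the same medians lay between −0.0048 and 0.012.

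**Figure D3:**
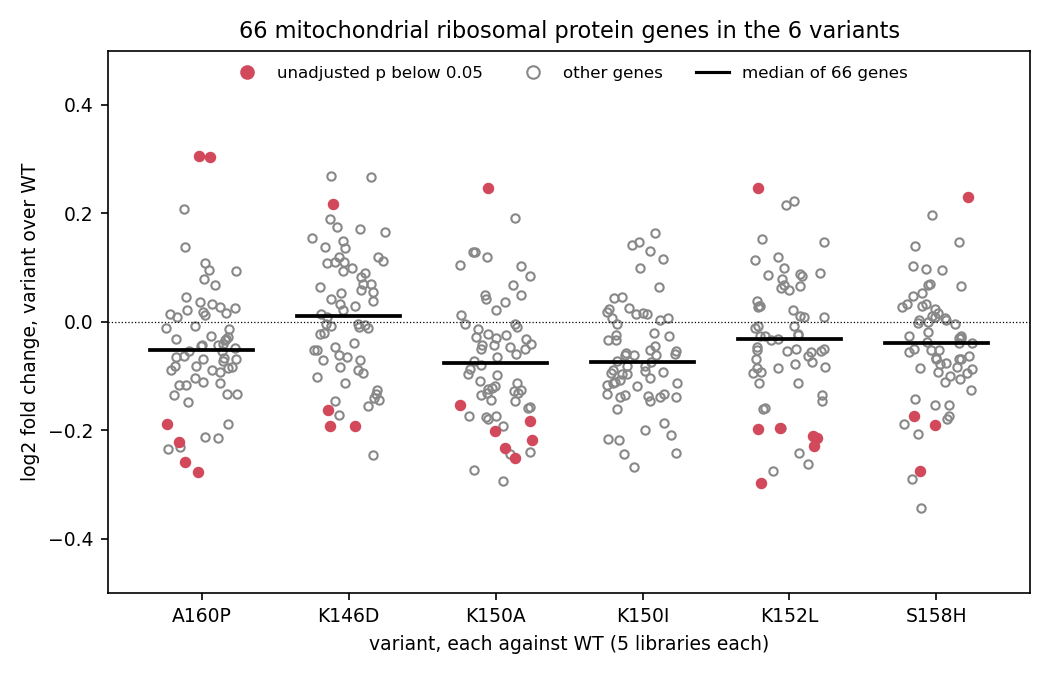
Log2 fold change of each of the 66 genes in each variant over WT (5 libraries each), with genes at an unadjusted p below 0.05 filled and the median of the 66 genes as a bar. All points lie between −0.34 and 0.31, and no gene passed an adjusted p of 0.05 in this fit, which had no replicate block.

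All 6 comparisons share the same WT libraries, so a gene that is high in WT is low in every comparison at once. With that said, 25 of the 66 genes (37.9%) had a log2 fold change below 0 in all 6 variants, against 17.7% of all genes, and 9 (13.6%) had one above 0 in all 6, against 18.8%. In A160P, 4 genes had every variant library below every WT library (RSM24, MRP51, MRPS9 and MRPL13), against 1.25% of all genes. This was so for 2 genes in K150A (RSM23 and MRPL13, 1.03% of all genes), 2 in K152L (RSM24 and MRPL13, 1.09%) and 1 in S158H (RSM24, 0.228%), and for 0 in K146D (1.12% of all genes) and K150I (0.309%). For 0 of 66 genes was every variant library above every WT library, against 0.228% of all genes in A160P, 0.326% in K146D, 0.668% in K150A, 0.261% in K150I, 0.293% in K152L and 0.261% in S158H.

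MRPL13 (mL50) is a large-subunit protein found in mitochondria but not in bacteria, and it was below WT in all 6 variants. Its CPM in replicates 1 to 5 were 63.4, 59.2, 55.0, 63.99 and 59.0 in K152L and 59.0, 59.1, 65.2, 59.8 and 61.3 in A160P, against 77.0, 78.1, 65.7, 73.4 and 75.2 in WT. The WT library of replicate 3 was the lowest of its group, and all K152L and A160P libraries were below it. The log2 fold change was −0.30 ± 0.085 (SE) in K152L (edgeR adjusted p = 0.127) and −0.28 ± 0.085 in A160P (adjusted p = 0.181).

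MRPS9 encodes uS9m, a core protein of the small subunit, and had an unadjusted p below 0.05 in 5 of 6 variants, all but K150I. It had 84.2, 77.9, 82.0, 84.0 and 83.1 CPM in A160P, against 101, 99.2, 92.2, 89.0 and 98.4 CPM in WT. The A160P libraries lay within a narrow band, all below WT, and the log2 fold change was −0.22 ± 0.069 (adjusted p = 0.211). MRP51 had 128.5, 116.4, 116.6, 121.1 and 122.9 CPM in K152L, against 151.1, 139.5, 127.5, 138.9 and 145.8 CPM in WT. Here the groups overlapped at a single pair of libraries, and the log2 fold change was −0.21 ± 0.061 (adjusted p = 0.115).

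In the opposite direction, MRPL38, the counterpart of uL14 in the large subunit, was above WT in all 6 variants. It had 67.4, 58.5, 68.4, 53.6 and 66.0 CPM in A160P, against 45.0, 55.4, 48.8, 49.0 and 57.0 CPM in WT. The groups overlapped, and the log2 fold change was 0.30 ± 0.090 (adjusted p = 0.152). MRPL8 (bL17m), MRP1 (mS43) and RSM24 (mS35) were below WT in all 6 variants, with adjusted p values of at least 0.208, 0.409 and 0.377.

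Libraries with the same replicate number deviated together from the means of their groups (median correlation 0.550). Different numbers within replicates 1-3 or 4-5 did so almost as much (median 0.524). With the replicate number as a block, 5 of the 396 differences passed. MRPL38 was higher in A160P (log2 fold change 0.32 ± 0.080, edgeR adjusted p = 0.0199). MRP51 was lower in K150A (−0.20 ± 0.057, adjusted p = 0.0361) and in K152L (−0.21 ± 0.056, adjusted p = 0.0245). In K152L, MRPL8 (−0.23 ± 0.061, adjusted p = 0.0252) and MRPL13 (−0.30 ± 0.081, adjusted p = 0.0314) were also lower. The block raised the share of all genes called to 2.59% in A160P, 4.82% in K150A and 3.62% in K152L. Against these stand 1, 1 and 3 of the 66 genes. With the block 0 of 66 passed in K146D (1.92% of all genes), K150I (0.391%) and S158H (1.19%). MRPL13 in K152L also passed with K146D replicate 5 left out (adjusted p = 0.0473).

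The other genes of mitochondrial translation, and of the complexes that it serves, gave the same count. None of 13 mitochondrial ribosomal protein genes under other names, 25 translation factor and tRNA synthetase genes, 19 translational activator and assembly genes and 37 genes of the respiratory chain and ATP synthase passed an adjusted p of 0.05 in any variant. For comparison, 138 genes were taken as cytosolic ribosomal protein genes by the names RPL, RPS or RPP with a number. This name rule also took in RPP1, which encodes a subunit of RNase P and not a ribosomal protein. None of the 138 passed in any variant in the same fit. Counts for these groups with the block are not given here.

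The 66 genes varied little among libraries. Their CV over the 35 libraries had a median of 11.5%, against 18.6% for all genes tested, whose median level was about the same. Mean levels ran from 4.48 to 130 CPM in the 66 genes and from 0.872 to 20264 CPM in all genes tested. Levels were not matched, so their part in this gap was not tested. The 13 mitochondrial ribosomal protein genes under other names had a median CV of 10.5%. It was 15.6% for translation factor and tRNA synthetase genes and 15.2% for activator and assembly genes. Cytosolic ribosomal protein genes had 17.2% and respiratory chain and ATP synthase genes 19.6%. Among the 66 genes, RSM28 (mS46) had the lowest CV, 7.10%, and MRP51 had 7.47%, whereas MRPS12 had 48.4%, MRP2 27.6% and MRP8 27.1%. Between forms of Ste12, the range of the mean log2 CPM was smallest for MRPL33 (uL30m, 0.072), MRP20 (uL23m, near the exit of the peptide tunnel, 0.091) and MRPL37 (mL54, 0.099). It was largest for MRPS12 (0.57), MRP2 (0.35) and MRPL20 (mL58, 0.33).

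The largest single difference lay between replicates 4-5 and 1-3, at −1.30 log2 for MRPS12, whose range between forms of Ste12 was 0.57. Other genes went the other way. MRPL38 differed by 0.010 between the replicate groups and had a range of 0.30 between forms. A difference of 2 groups and a range over 7 forms are unlike measures. The labels give no condition to the replicate numbers, so the differences between replicates 4-5 (14 libraries) and replicates 1-3 (21 libraries) are a description, without a test. Depth moved with the split, from 1039390 to 2850293 UMIs per library in replicates 4-5 and from 2527748 to 5481822 in replicates 1-3, and its part in the differences was not tested. Replicate 3 came from the same labelled experiment as 4 and 5 but resembled 1 and 2.

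As a group the 66 genes hardly moved in this split. The mean log2 difference, replicates 4-5 minus 1-3, had a median of 0.016 over the 66 genes and 0.0048 over all genes. It lay within ±0.5 for 62 of the 66 genes, against 71.1% of all genes. In all 7 forms of Ste12, 13 genes were lower in replicates 4-5 (28.9% of all genes) and 14 were higher (27.6%). None of the 66 had all libraries of replicates 4-5 below (7.38% of all genes) or above (3.75%) all libraries of replicates 1-3. When libraries were scaled to total UMIs instead, the median of all genes was 0.15 and the median of the 66 genes was 0.16. The counts of the 66 genes then became 8 lower and 33 higher. The shares of all genes at this scaling are not given here, so these counts show nothing particular to the 66 genes.

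Among the other groups, cytosolic ribosomal protein genes and genes of the respiratory chain had medians further from 0. Cytosolic ribosomal protein genes had a median difference of −0.25, and 82 of 138 (59.4%) were lower in replicates 4-5 in all 7 forms, against 28.9% of all genes. Genes of the respiratory chain and ATP synthase had a median of −0.44, with 35 of 37 (94.6%) lower in all 7 forms. Without overlap and lower in replicates 4-5 were 14 of 37 (37.8%, against 7.38% of all genes). The medians of the remaining groups were near 0, at 0.047 for the 13 mitochondrial ribosomal protein genes under other names, −0.0065 for the 25 translation factor and tRNA synthetase genes and −0.047 for the 19 activator and assembly genes. Taken by replicate number, the median log2 deviations from a gene's mean over the replicates were, in replicates 1 to 5, 0.21, 0.28, 0.12, −0.23 and −0.34 for the respiratory chain. For cytosolic ribosomal protein genes they were 0.026, 0.066, 0.21, −0.34 and 0.024. In this median replicate 5 stood at the level of replicate 1 and replicate 4 was the lowest. Still, the 19 genes without overlap (13.8%, against 7.38% of all genes) were lower in both replicates 4 and 5. Scaled to total UMIs, the medians were −0.10 for cytosolic ribosomal protein genes and −0.30 for the respiratory chain.

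**Figure D4:**
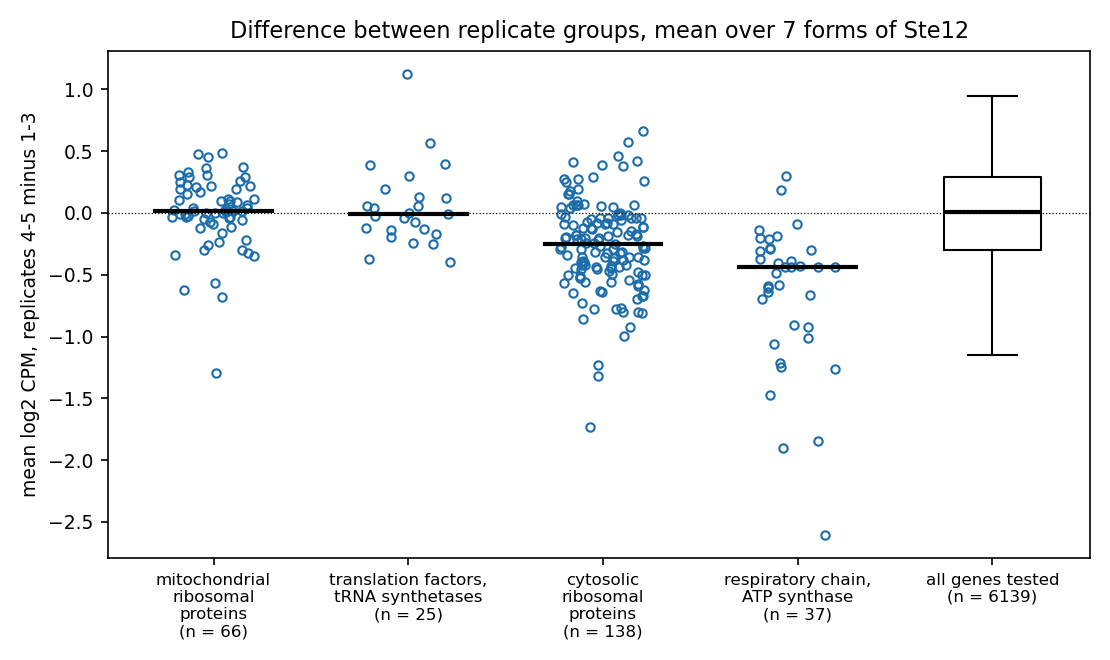
Mean log2 CPM in replicates 4-5 minus replicates 1-3, averaged over the 7 forms of Ste12, for the genes of 4 groups (points, with the median as a bar) and for all genes tested (box from the lower to the upper quartile, median line, whiskers from the 5th to the 95th percentile). The 66 mitochondrial ribosomal protein genes centre on 0.016 and the respiratory chain genes on −0.44.

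Within the group, 4 genes fell outside ±0.5, all of them lower in replicates 4-5, and 3 of these were also the least abundant members. MRPS12 had between 0.546 and 4.79 CPM with a median of 2.18 in replicates 4-5, against 3.40 to 7.71 CPM with a median of 6.03 in replicates 1-3. The mean log2 difference was −1.30 ± 0.40 (SD over 7 forms). MRP2 (uS14m) had between 8.23 and 15.6 CPM with a median of 11.8 in replicates 4-5, against 11.5 to 23.2 CPM with a median of 20.8 in replicates 1-3. For both genes the ranges overlapped, and both were lower in replicates 4-5 in all 7 forms.

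MRP8, which is not a ribosomal subunit, differed by −0.63 ± 0.18 and MRPL4 (uL29m) by −0.57 ± 0.21. The next lowest values lay well inside the limit, with RSM10 (uS10m) at −0.35 ± 0.098. In WT, MRP8 had 32.0 and 70.6 CPM in replicates 4 and 5, against 83.5, 88.9 and 81.1 CPM in replicates 1 to 3. Replicates 4 and 5 of WT thus differed from each other by more than replicate 5 differed from replicates 1 to 3. At the other end, MRPL40 (uL24m) differed by 0.48 ± 0.082 and MRPL25 (mL59) by 0.48 ± 0.063, both just inside the limit. MRPL49 (bL21m) differed by 0.45 ± 0.15, MRPL37 (mL54) by 0.37 ± 0.14 and RSM22 by 0.37 ± 0.19. All 5 were higher in replicates 4-5 in all 7 forms. Which genes lay outside ±0.5 depended on the libraries compared. Against replicate 3 alone, MRP8 (−0.43) and MRPL4 (−0.44) lay inside, and MRPL40 (0.60), MRPL25 (0.55) and MRPL49 (0.54) lay outside on the higher side.

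Binding was measured by calling cards: the transposase fused to Ste12 inserts a marked transposon near the place where Ste12 is bound, and each insertion is counted by its UMI. There were 2 libraries for each form, 14 in all, with 5904 to 12778 UMIs per library. A peak was assigned to a gene when it overlapped a window that reached 1000 bp upstream and 200 bp downstream of the start codon, and was called a site when it had at least 3 UMIs in both libraries of a form. Of the 66 genes, 15 (22.7%) had any peak in their window, against 27.4% of all 6002 genes.

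A site stood in the window of 4 genes in WT (6.06%, against 4.60% of all genes): RSM10, MRP4, MRP17 and MRPL10. In the variants, 1 gene had a site in K146D (MRPS12, against 5.11% of all genes), 1 in K150A (MRP4, 4.23%) and 1 in K152L (MRP21, 2.10%). No gene of the 66 had a site in A160P (1.68% of all genes), K150I (2.58%) or S158H (3.10%). The peak counts by library show the WT sites of these 4 genes as nearly absent from the variants. How many WT sites of other genes were lost in the same way is not given here.

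At RSM10, which encodes uS10m of the small subunit, the peak lay at chrIV:539573-539674 (R64), centred 179.5 bp 5′ of the coding start and in the window of no other gene. It had 0 and 1 UMIs in the K146D libraries and 0 in both libraries of the other 5 variants, against 136 and 75 UMIs in WT. Relative to the library totals, 0 UMIs in the 2 libraries of a variant means at least 44.4-fold (S158H) to 65.3-fold (K150A) fewer insertions than in WT, with 3 UMIs over the group as the limit for a count of 0. In K146D the ratio to WT was 0.00516 (95% exact binomial interval 0.000130 to 0.0291). Such limits and intervals cover counting error only.

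At MRP17, which encodes bS6m, the peak lay at chrXI:437720-437820, 278 bp 5′ of the coding start. It had 0 UMIs in all 12 variant libraries, against 32 and 27 UMIs in WT, at least 12.4-fold to 18.2-fold fewer. The window is shared with DID4, a gene of endosomal sorting that is transcribed in the opposite direction. At MRPL10, which encodes uL15m, the peak at chrXIV:104027-104127 spanned the coding start. It had 0 and 1 UMIs in each of A160P and K150I and 0 in both libraries of K146D, K150A, K152L and S158H, against 76 and 38 UMIs in WT. A further peak in the window, at chrXIV:104603-104703, held 1 UMI, in S158H replicate 2.

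At MRP4, which encodes uS2m, the peak at chrVIII:98208-98316 was centred 957 bp 5′ of the coding start, near the end of the window, and also lay in the window of STE20, a kinase gene of the mating pathway. It had 5 and 5 UMIs in K150A, 0 and 2 in A160P, 1 and 1 in K146D and 0 in both libraries of K150I, K152L and S158H, against 113 and 81 UMIs in WT. The ratio to WT was 0.0556 in K150A (95% exact binomial interval 0.0262 to 0.104), 0.0140 in A160P and 0.0112 in K146D.

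In limma on log2(UMIs per 1000000 + 100) over 981 windows, all 4 windows were called lower than WT in each of the 6 variants. Of all windows, 29.7% were lower in A160P, 23.2% in K146D, 23.8% in K150A, 26.2% in K150I, 26.1% in K152L and 24.8% in S158H. Only 7 of the 66 genes passed the filter of at least 3 UMIs in 2 libraries, these 4 through the WT libraries, in which they are high (MRP4 also through K150A), so the calls are a description of windows chosen for that height and the count of 4 is not a share of the 66.

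Insertions that were more frequent in a variant were few. MRPS12 had 4 and 8 UMIs in K146D, against 0 in both WT libraries, at chrXIV:694888-694988, 116 bp 5′ of its coding start, in a window shared with ARC35 and DBP6. That is at least 4.36-fold more than in WT. MRP21, which encodes bS21m, had 4 and 3 UMIs in K152L, against 0 in both WT libraries, at chrII:48714-48814, at least 2.66-fold more, in a window shared with MAP2 and AVT5. Both windows passed the filter through the variant in which they are high, on no more than 12 UMIs each, so that their calls in limma add nothing to these counts. In this direction 25.7% of all windows were called in K146D and 10.9% in K152L.

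**Figure D5:**
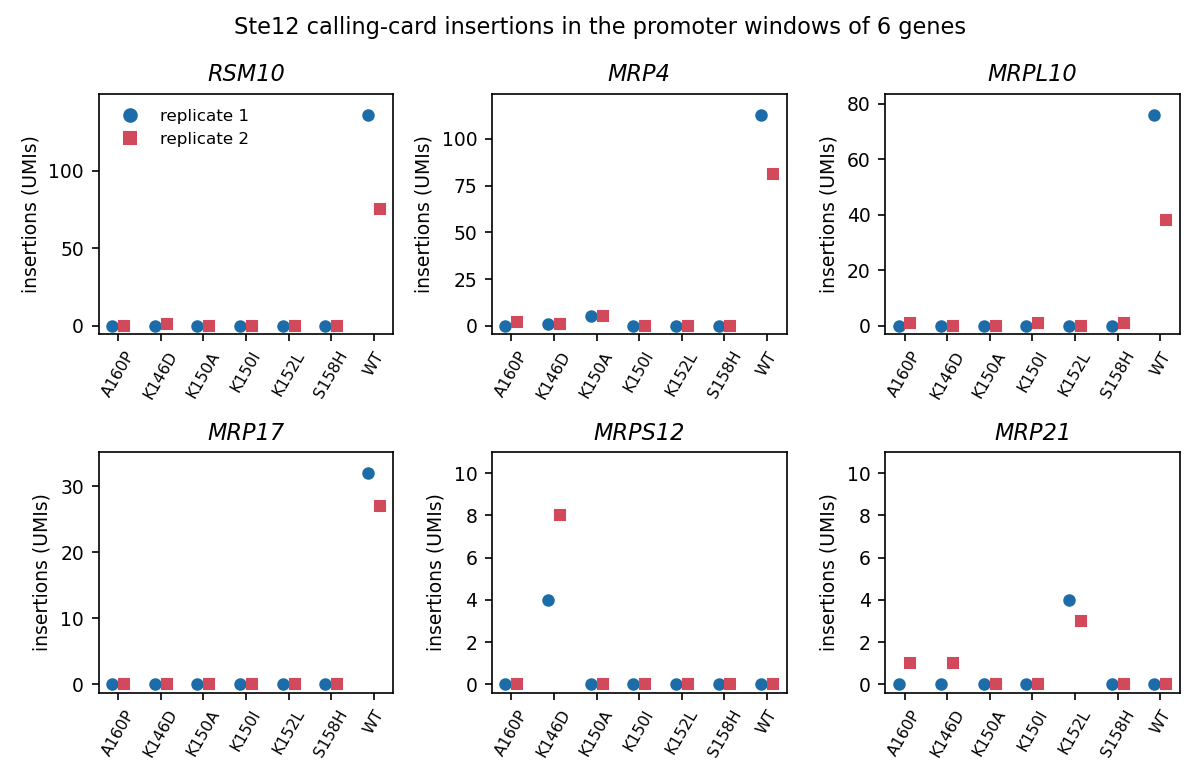
Insertions (UMIs) in the promoter windows of RSM10, MRP4, MRPL10, MRP17, MRPS12 and MRP21 in each of the 14 calling-card libraries, by form of Ste12, with replicate 1 as circles and replicate 2 as squares. The first 4 genes have 27 to 136 UMIs in each WT library and at most 5 in any variant library.

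The RNA of the 4 genes with a WT site did not pass the test in any variant. RSM10 had 50.6, 50.8, 54.3, 51.4 and 37.8 CPM in A160P, against 59.9, 55.0, 57.9, 38.6 and 48.4 CPM in WT, and its log2 fold changes over the 6 variants ran from −0.14 to 0.0080. Those of MRP4 ran from −0.20 to 0.021, those of MRP17 from −0.062 to 0.11 and those of MRPL10 from −0.13 to −0.0015. The lowest adjusted p among them was 0.989. Their 95% confidence intervals all lay between −0.51 and 0.33, so larger differences in RNA than these bounds were outside the intervals under the conditions of the RNA experiment. The RNA and binding experiments differ in the promoter that drives Ste12, in its fusion to the transposase and in the presence of the chromosomal STE12. They also differ in growth. By the paper's methods, cells for binding were induced on galactose plates and later selected on plates, whereas RNA came from cells in exponential growth.

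For the genes on the other side of the shared peaks the RNA values were similar. STE20 had log2 fold changes from −0.16 to −0.0016 and DID4 from −0.27 to −0.061, with adjusted p values of at least 0.999 and 0.998. MRPS12 in K146D had a log2 fold change of 0.27 with a 95% confidence interval from −0.72 to 1.26. MRP21 had log2 fold changes from −0.047 to 0.15 over the 6 variants.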

How the data were processed

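RNA-seq values were UMI counts per gene, deposited by the authors without normalization for 35 libraries, from cDNA primed with oligo-dT. Calling-card values, for 2188 peaks, were deposited as natural logs (1 added to the UMIs per 1000000). All 30632 came out as whole UMIs within 0.001. Processing notes name R64, STAR, MACS2 and Trim Galore 0.4.1, without roles. The submitters' description calls the replicates biological. The transposase-alone libraries were not analysed here.

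URA3 was left out, genes were filtered with filterByExpr, and genotypes were compared in 1 fit of edgeR 4.0.16 (R 4.3.3, TMM, quasi-likelihood test, adjusted by Benjamini-Hochberg). On counts simulated for K152L against WT over 6094 genes, the fit found 99.1% of 4-fold changes and 62.2% of 2-fold changes, with 3.55% false calls. The simulation gave all genes the same spread and drew libraries independently, without the split between replicate groups. Only genes above a minimum expected count were changed. These rates therefore need not hold for the real libraries. Promoter windows were compared with limma 3.58.1 (pseudocount 100, at least 3 UMIs in at least 2 libraries), since the deposited values are logs. The strand of each gene came from its systematic name. Same-numbered libraries of a variant and WT deviated together in all 30 pairs (r from 0.189 to 0.755, median 0.550), and different numbers within replicates 1-3 or 4-5 did so with a median r of 0.524. Alternatives were other scalings and filters, DESeq2 1.42.0, a replicate block, subsets of replicates, other windows and minimums, and each library left out.

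The genes and lists were chosen with earlier results of these data known. Named genes were those called, the most and least abundant, those with the largest differences between replicate groups or among genotypes, those with a site, and MRP8 and RSM22. Genes with an unadjusted p below 0.05 in at least 2 variants, and RSM23 and RSM28, were named after their values were seen. MRP4, MRPL19 and MRPL51 overlap other genes, and how such reads were counted is not given in the sources used here.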

Additional observations from a re-analysis of the deposited data

Results flagged for a closer look

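Of 210 groups of 5 libraries (29 named genes and the summed level, in 7 forms of Ste12), 12 held a library whose gap to the next was more than 0.71 of the whole range of the group, and chance gives about 10.5 such groups. No explanation was tested.

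RSM22, the methyltransferase-like gene, stood out in replicate 4 of 3 variants. It had 99.8 CPM in A160P replicate 4 (47.2 to 55.3 CPM in the other 4 libraries), 85.9 CPM in K152L replicate 4 (44.9 to 54.7 CPM) and 70.2 CPM in K146D replicate 4 (51.3 to 53.9 CPM). In WT, RSM22 had 67.3 CPM in replicate 4 and 71.6 CPM in replicate 5, against 53.8 to 56.6 CPM in the others. MRP7 (bL27m) was low in replicate 5 of K152L, at 102 CPM (125 to 129 CPM in the others), and of S158H, at 85.5 CPM (124 to 137 CPM).

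The other 7 were single libraries. Lower than the rest of their group were RSM10 in A160P replicate 5 (37.8 CPM), MRPL13 in K146D replicate 5 (49.4 CPM), MRP4 in K150I replicate 4 (33.7 CPM) and MRP20 in K152L replicate 2 (48.4 CPM). Higher were MRP17 in K146D replicate 2 (66.1 CPM), MRPL44 in K150A replicate 4 (38.8 CPM) and MRPL10 in S158H replicate 4 (132 CPM).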

How the results depend on the processing

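Alternatives gave 2144 values for 82 results. Of the log2 fold changes and differences, the summed level of K146D over WT changed sign, from −0.0020 to 0.0024 without MRP8 and RSM22 and to 0.0052 as a median over genes, both within the spread between replicates. The count of 0 genes called in expression changed with the samples or the covariate. With a replicate block it was 1 in A160P, 1 in K150A, 3 in K152L and 2 in the F test (5.42% of all genes). With replicates 1 and 2 alone it was 1 in A160P (MRPL13, 3.91% of all genes), 1 in K150I (RSM19, 1.62%) and 1 in K152L (MRP1, 6.23%). With replicates 1 to 3 alone it was 3 in K152L (MRPS9, MRPL8 and MRPL13, 5.45% of all genes) and 1 in S158H (RSM22, 2.10%). Over all libraries left out in turn the counts ran from 0 to 1, the 1 being MRPL13 in K152L without K146D replicate 5 (0.924% of all genes). Other scalings, no filter, the experiment as a covariate, DESeq2 and pairwise fits gave 0. The cause was not tested.

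Between replicate groups, scaling to total UMIs gave a median of 0.161 (0.148 for all genes), with 8 genes lower and 33 higher in all 7 forms. With replicate 3 in place of replicates 1-3 the count lower was 7, against 13. The shares of all genes at these settings are not given here. Sites counted at a minimum of 1 UMI stood at 3 genes in A160P (5.08% of all genes), 5 in K146D (9.15%), 2 in K150A (7.43%), 1 in K150I (4.53%), 2 in K152L (3.88%) and 1 in S158H (6.83%). A minimum of 10 UMIs left 0 in K146D (2.80% of all genes), K150A (2.13%) and K152L (1.67%). WT had 4 genes at a minimum of 1 UMI (6.33% of all genes) and 4 at 10 UMIs (2.92%). A window from 500 bp left 0 in K150A and removed MRP4 in WT. With 1 library alone the counts ran from 0 to 2 in A160P, 1 to 2 in K146D and 1 to 3 in K150A. In WT replicate 1 alone, MRPL23 and MRP51, with 7 UMIs each, also reached the minimum. The shares of all genes for the shorter window and for single libraries are not given here. edgeR on recovered UMIs called 361 to 448 windows per variant over all genes. Each library left out kept the windows of the full fit. Depth limits MRPS12 in expression and every peak under 10 UMIs in binding.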

Other observations

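A further 9 mitochondrial ribosomal protein genes had insertions in their windows that did not make a site in any form of Ste12. MRP51 had 1 and 1 UMIs in K152L and 2 and 0 in A160P, against 7 and 0 in WT. MRPL23 (uL13m) had 4 and 2 UMIs in K146D and 5 and 2 in K150A, against 7 and 0 in WT. Both WT values rest on replicate 1, the deepest of the calling-card libraries, with 0 UMIs in replicate 2. MRPL39 (bL33m) had 4 and 2 UMIs in A160P, against 1 and 0 in WT. The remaining 6 (MRPS9, MRPL37, MRPL13, MRPS17, MRPL24 and MRP7) had at most 3 UMIs in any library.

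The median log2 difference, replicates 4-5 minus 1-3, was 0.037 for the 37 genes of the large subunit, with quartiles at −0.036 and 0.22, and −0.0098 for the 27 genes of the small subunit, with quartiles at −0.093 and 0.13. Genes with a bacterial counterpart had a median of 0.016 and mitochondria-specific genes one of 0.017.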
